A study of Mus musculus with 6 samples.

Results

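The clustered protocadherins are cell-surface adhesion proteins of the cadherin superfamily, encoded in alpha, beta and gamma clusters that lie side by side on mouse chromosome 18. They were taken from the deposited gene table by symbol, as every protein-coding row beginning with Pcdha, Pcdhb plus a number, or Pcdhg. This gave 57 genes out of 45777, namely 14 alpha, 22 beta and 21 gamma genes. The set was selected on the fold changes between the labelled groups, in which Pcdhga9 stood apart from the other gamma genes. All values of that contrast are therefore given for the members as a description and carry no test. Pcdhgb8 fits the symbol but is a transcribed pseudogene, so it lies just outside the set, with 7 to 24 counts per library.

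The libraries are mRNA sequencing of the white fat pad beside the epididymis (epididymal white adipose tissue, eWAT), from mice on a C57BL/6 background after a 24 h fast. The 3 libraries labelled WT came from mice homozygous for a floxed Pak4 allele (Pak4 flox/flox), and the 3 labelled KO from mice of that genotype that also carried Adipoq-Cre. Both groups thus carry the floxed allele and both were fasted, and mice with Cre alone or with unmodified Pak4 were not analysed here. Adipoq-Cre drives the recombinase from the adiponectin promoter, which is active in adipocytes, while Pak4 in other cells of the pad is not targeted. Age is not given in the labels, and nothing says whether each number is a separate mouse, so errors measure the spread between these libraries.

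Each alpha or gamma protocadherin gene has a promoter and a large variable exon of its own, which encodes the outer domains and the membrane span, spliced to constant exons that the whole cluster shares. Beta genes are built from a single exon and lack such a constant part. In neurons, single cells switch on different small sets of these genes, and the resulting combinations let a neuron tell its own branches from those of other cells. The choice of promoter depends on CTCF and cohesin, which loop an active promoter to an enhancer, and on DNA methylation and SMCHD1, which keep other promoters silent. C-type genes, at the end of the alpha and gamma clusters, differ in sequence from the rest and are used more constitutively.

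The libraries held 62854465 to 72005658 counts. Levels are CPM unless stated, each a count as a proportion of its library's total, per 1000000, with totals scaled by TMM factors of 0.931 to 1.07. The targeted gene went against the labels: Pak4 had 339, 337 and 358 counts in the WT-labelled libraries 1, 2 and 3 and 815, 744 and 675 in the KO-labelled ones 1, 2 and 3. Every direction below is therefore between libraries by their labels, not between genotypes. KO 1 weighed on the test across all genes, since edgeR's quasi-likelihood test called 3 of 17820 genes with all 6 libraries and 1016 without KO 1. All 7 adipocyte markers had reads, with 1 above 0 and 6 below between labels. Their summed levels were 35250 to 41970 CPM in the WT-labelled libraries and 31430 to 34840 CPM in the KO-labelled ones, which did not overlap. DESeq2 called 1 of the 7, where it called 7.16% of all genes, and edgeR called 0. Markers of fibroblasts, endothelium, smooth muscle, mesothelium and macrophages were also present, so the tissue was mixed. In bulk tissue, fewer cells of a type and less RNA per cell cannot be told apart.

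In the mm10 assembly the alpha genes run from 36930285 to 37188897, the beta genes from 37264998 to 37521419 and the gamma genes from 37661775 to 37841873 on chromosome 18. All 57 genes were matched to a GENCODE transcript by RefSeq accession, and all are on the plus strand. The transcript of Pcdhga9, with 4 exons and 4724 bases, has 2608 bases of its own and 2116 that it shares with the other 20 gamma genes, which is 44.8% of its length. Across the gamma transcripts the shared part was 2116 or 2119 bases, and across the alpha transcripts it was 2860 bases. Each deposited FPKM value divides a count by a transcript length, and the lengths it implied were 0.981 to 1.00 times the full transcript for the 21 gamma genes. A gamma gene's count was thus scaled over its constant exons too, where a read does not name its gene of origin. The sources used here do not say how such reads were divided among the gamma genes, so the split between genes is less certain than the sum of the cluster.

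The variable exons are easier to tell apart. Over 210 pairs of gamma genes, they were identical at 56.4% to 81.3% of aligned bases, with a median of 61.1%. The closest paralog of Pcdhga9 was Pcdhga8, identical at 78.1% of 2585 aligned bases and with a longest exact match of 136 bases. With the 10 other A-type genes the longest exact match of Pcdhga9 was 26 to 53 bases, and with the 9 B-type and C-type genes it was 11 to 16 bases. In the alpha cluster, 91 pairs were identical at 57.1% to 84.2%, with exact matches of up to 271 bases. The sources used here give no read length, so how many reads could match more than 1 variable exon is unknown.

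The gamma cluster supplied most of the protocadherin reads. Its 21 genes took 89.2% to 92.8% of all member counts in each library, and all of them had reads in all 6. The summed gamma level was 130, 115 and 135 CPM in WT 1, 2 and 3 and 148, 138 and 127 CPM in KO 1, 2 and 3. These groups overlapped, with means of 127 ± 10.8 CPM and 138 ± 10.6 CPM (SD, n = 3 each). Without Pcdhga9 the gamma sums were 126 ± 10.98 CPM and 132 ± 9.75 CPM (SD, n = 3 each), also overlapping. With library size as the only scaling, the gamma sums did not overlap, at 107 to 132 CPM in the WT-labelled libraries and 133 to 149 CPM in the KO-labelled ones, and without Pcdhga9 they did, at 106 to 132 CPM and 128 to 142 CPM. By type, the 12 A-type genes summed to 29.5 to 34.7 CPM in the WT-labelled libraries and 35.2 to 43.2 CPM in the KO-labelled ones, which did not overlap. Without Pcdhga9 the other 11 A-type genes had 28.5 to 34.3 CPM and 29.9 to 36.1 CPM, which did. The 6 B-type genes had 21.3 to 25.4 CPM and 22.6 to 25.2 CPM, and the 3 C-type genes 63.9 to 76.1 CPM and 69.0 to 79.6 CPM, both overlapping. The sum over all 57 genes was 139 ± 11.5 CPM and 151 ± 8.74 CPM (SD, n = 3 each), overlapping. Without Pcdhga9 it was 138.7 ± 11.75 CPM and 145.6 ± 7.93 CPM (SD, n = 3 each), also overlapping. Scaled by library size alone, the sum over all 57 genes was 118 to 145 CPM and 149 to 163 CPM, with no overlap. That sum includes Pcdhga9 and was not computed without it, so its separation cannot be read as one of the whole family.

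**Figure D1:**
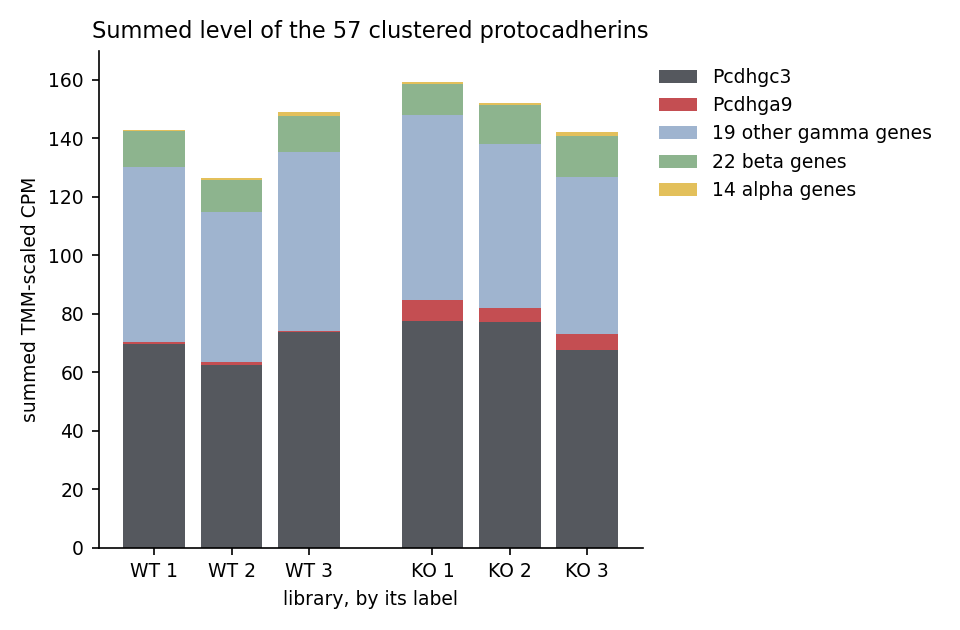
Stacked bars give the summed TMM-scaled CPM of the clustered protocadherins in each of the 6 libraries, named by label, split into Pcdhgc3, Pcdhga9, the remaining gamma genes, the beta genes and the alpha genes. Pcdhgc3 and the remaining gamma genes fill most of every bar, and the Pcdhga9 segment is thin in the WT-labelled libraries (0.440 to 0.955 CPM) and wider in the KO-labelled ones (4.62 to 7.16 CPM).

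Pcdhgc3 alone made up most of the gamma reads. It is a C-type isoform, known from other tissues to bind Axin1 and to restrain WNT signalling. Its authors' deposited TPM, a level per kilobase of transcript, was 27.2, 23.5 and 30.0 in the WT-labelled libraries and 31.1, 32.5 and 27.1 in the KO-labelled ones. It took 52.4% to 56.0% of gamma counts in the 6 libraries. Its level was 69.6, 62.6 and 73.8 CPM in WT 1, 2 and 3 and 77.5, 77.3 and 67.8 CPM in KO 1, 2 and 3, so the groups overlapped, and the log2 fold change of labels KO over WT was 0.11 ± 0.10 (SE).

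The other C-type gamma genes were at the low end of the cluster. Pcdhgc4, which neurons need for survival, had a mean TPM of 0.265 over the 6 libraries, the lowest of the 21. Pcdhgc5, known from brain as a binding partner of GABA-A receptors, had a mean of 0.50. Their log2 fold changes were 0.02 ± 0.40 and -0.52 ± 0.40 (SE), and both groups overlapped. Pcdhgc4 ranged from 0.388 to 0.951 CPM and Pcdhgc5 from 0.685 to 2.27 CPM over the 6 libraries, WT 1 being the highest for Pcdhgc5.

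Among the A-type and B-type gamma genes, mean TPM ran from 0.441 in Pcdhgb1 to 3.09 in Pcdhgb6, a narrow band beside Pcdhgc3. Pcdhgb6 and Pcdhga5, the highest after Pcdhgc3, had mean TPM of 3.09 and 2.73. At the low end stood Pcdhgb1 with 0.441 and Pcdhga1 with 0.498, besides Pcdhgc4. Pcdhgb6 had 8.75, 5.30 and 7.32 CPM in the WT-labelled libraries and 7.58, 9.18 and 8.13 CPM in the KO-labelled ones, with overlap. Pcdhga5 was the steadiest of these, at 7.13, 6.94 and 7.58 CPM against 6.93, 6.11 and 6.22 CPM, the WT labels above the KO labels by a small margin (log2 fold change -0.17 ± 0.12, SE). On the deposited TPM its groups overlapped. Of the 21 gamma genes, 13 had a mean TPM of at least 1. Over the 15 pairs of libraries the order of the 21 genes by TPM had a Spearman rho of 0.70 to 0.942 across genes, which share libraries and constant exons. Between libraries of 1 label rho was 0.858 to 0.942, and across labels it was 0.70 to 0.781. Pcdhga9, known beforehand to differ in this contrast, was among the genes ordered, and rho was not computed without it. The gap between these ranges therefore cannot be read as a difference in the order of the other gamma genes.

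Places in that order that did not overlap between labels were those of Pcdhga9, Pcdhgb5 and Pcdhga10. Pcdhgb5 ranked 7, 5 and 8 of 21 in WT 1, 2 and 3 and 11, 13 and 10 in KO 1, 2 and 3, and Pcdhga10 went from 6 in each to 7, 7 and 8. Ranks depend on the other genes, and Pcdhga9, ranked earlier in the KO-labelled libraries, put each gene it passed a place later. Both of these genes were passed, and the CPM of Pcdhga10 overlapped between labels (log2 fold change -0.01 ± 0.17, SE). Pcdhga9 lay further apart and in the other direction. Pcdhga9 had 54, 64 and 27 counts in WT 1, 2 and 3 and 482, 322 and 390 counts in KO 1, 2 and 3. These counts correspond to 0.881, 0.955 and 0.440 CPM and to 7.16, 4.62 and 5.24 CPM. Every library labelled KO was well above every library labelled WT, KO 1 being the highest of all. The log2 fold change was 2.90 ± 0.32 (SE), from 0.759 ± 0.278 to 5.67 ± 1.33 CPM (SD, n = 3 each).

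By TPM, Pcdhga9 ranked 20, 18 and 20 of 21 gamma genes in WT 1, 2 and 3, and 3, 5 and 4 in KO 1, 2 and 3. Its share of all gamma counts was 0.612% ± 0.260 in the WT-labelled libraries and 4.11% ± 0.746 in the KO-labelled ones (SD, n = 3 each). Being a ratio within the cluster, this share does not depend on how libraries were scaled. The remaining genes other than Pcdhgc3 took 45.2% ± 0.647 and 41.9% ± 1.15 of gamma counts (SD, n = 3 each), while Pcdhgc3 took 54.2% ± 0.639 and 53.9% ± 1.87. Of all 17820 genes tested, 14 had a log2 fold change at or above that of Pcdhga9, which is 0.0786% and is given only to place its size.

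**Figure D2:**
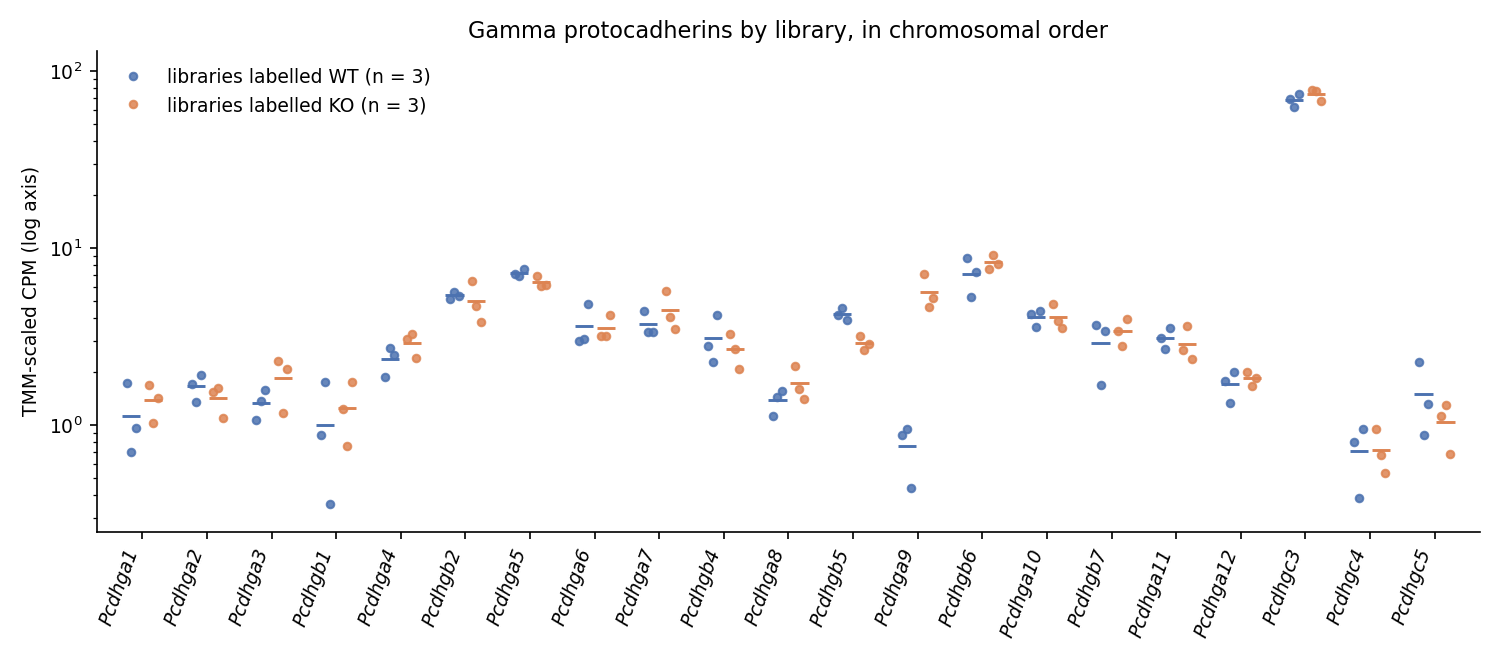
Each point is the TMM-scaled CPM of 1 gamma gene in 1 library, on a log axis, with genes in chromosomal order and short bars at the mean of each labelled group (n = 3). Blue and orange points intermingle for most genes, and Pcdhga9 is where the KO-labelled libraries (4.62 to 7.16 CPM) lie far above those labelled WT (0.440 to 0.955 CPM).

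Genes next to Pcdhga9 did not share its pattern. Pcdhga9 starts at 37736936 and has Pcdhga8 and Pcdhgb5 before it and Pcdhgb6 and Pcdhga10 after it. Pcdhga8, its closest paralog, had 1.13, 1.45 and 1.57 CPM in the WT-labelled libraries and 2.16, 1.61 and 1.396 CPM in the KO-labelled ones, which overlapped (log2 fold change 0.32 ± 0.25, SE). Pcdhgb5 pointed the other way, at 4.195, 4.61 and 3.90 CPM against 3.18, 2.67 and 2.87 CPM, with all KO-labelled libraries below all labelled WT (-0.54 ± 0.16, SE). Pcdhgb6 stood at 0.22 ± 0.19 and Pcdhga10 at -0.01 ± 0.17 (SE), both with overlapping groups. The sign for Pcdhga10 turned when libraries were scaled by size alone (0.10).

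The 20 gamma genes other than Pcdhga9 had log2 fold changes between -0.54 and 0.46, and 2 of them, Pcdhgb5 and Pcdhgc5, reached an absolute value of 0.5. The value of Pcdhgc5 rested on WT 1, without which it was -0.08. The highest values after Pcdhga9 were those of Pcdhga3, 0.46 ± 0.30, and Pcdhga8, and Pcdhga2 stood at -0.22 ± 0.25 (SE). Pcdhga3 had 1.06, 1.37 and 1.58 CPM against 2.29, 1.18 and 2.07 CPM, with KO 2 inside the range of the WT labels. Over the 21 gamma genes, 12 were above 0 and 9 below, with a median of 0.11. For comparison, the median over all 17820 genes was 0.02, and 52.1% were above 0. With library size as the only scaling, that median of all genes was 0.13, and 16 of 21 gamma genes were above 0.

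Beta genes were measured at lower levels. Of 22, 21 had reads in any library and 19 in all 6, and Pcdhb1 had none. For the tested beta genes the SD between libraries of 1 label had a median of 18.2% of the mean CPM in the WT labels. In the KO labels it was 28.8%, and for gamma genes these medians were 19.6% and 22.2%. Pcdhb17, Pcdhb22 and Pcdhb14 were the highest per kilobase, with mean TPM of 1.44, 1.39 and 0.643. Pcdhb2 and Pcdhb6 had at most 2 and 10 counts in a library. The order of the 22 genes by TPM had a Spearman rho between libraries of 0.81 to 0.941 across genes. Between libraries of 1 label it was 0.831 to 0.936, and across labels it was 0.81 to 0.941. The summed beta level was 12.2, 11.2 and 12.2 CPM in WT 1, 2 and 3 and 10.5, 13.5 and 14 CPM in KO 1, 2 and 3, with KO 1 the lowest of the 6 libraries.

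Pcdhb22, the last gene of the beta cluster, had 2.16, 2.104 and 1.83 CPM in the WT-labelled libraries and 2.26, 2.91 and 2.46 CPM in the KO-labelled ones. These groups did not overlap, by a small gap (log2 fold change 0.33 ± 0.19, SE). Its neighbour Pcdhb21 had the largest fold change of the cluster, 1.00 ± 0.53 (SE), on 5, 13 and 19 counts against 21, 21 and 42 counts. It was 0.64 without WT 1, 0.65 without KO 3 and 1.49 without WT 3. Its CPM overlapped, since WT 3 (0.310) lay within the KO labels, whose lowest was KO 2 (0.301). On the deposited TPM its groups did not overlap, by a very small gap between WT 3 (0.2092) and KO 1 (0.2095).

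Pcdhb17 was even between labels, at 2.94, 1.91 and 2.75 CPM against 2.42, 2.73 and 2.40 CPM (log2 fold change -0.01 ± 0.21, SE). Pcdhb14 was the steadiest beta gene in the WT-labelled libraries, with 1.14, 1.19 and 1.16 CPM there and 1.13, 1.205 and 1.32 CPM in the KO-labelled ones. Pcdhb4 had 0.375, 0.328 and 0.342 CPM against 0.327, 0.287 and 0.215 CPM, groups that did not overlap on 16 to 23 counts per library (-0.34 ± 0.35, SE). Its deposited TPM overlapped. Among the remaining named beta genes, Pcdhb10 (0.37 ± 0.56) and Pcdhb9 (0.33 ± 0.53) lay above 0, and Pcdhb15 (-0.57 ± 0.50) and Pcdhb11 (-0.43 ± 0.42) below (SE). Pcdhb9 was low in KO 1 (0.164 CPM) and high in KO 2 and KO 3 (0.660 and 0.765 CPM), on both sides of the WT labels. Of 16 beta genes that passed the filter on low counts, 8 were above 0 and 8 below, with a median of 0.03, and 11 were above 0 under scaling by library size alone.

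**Figure D3:**
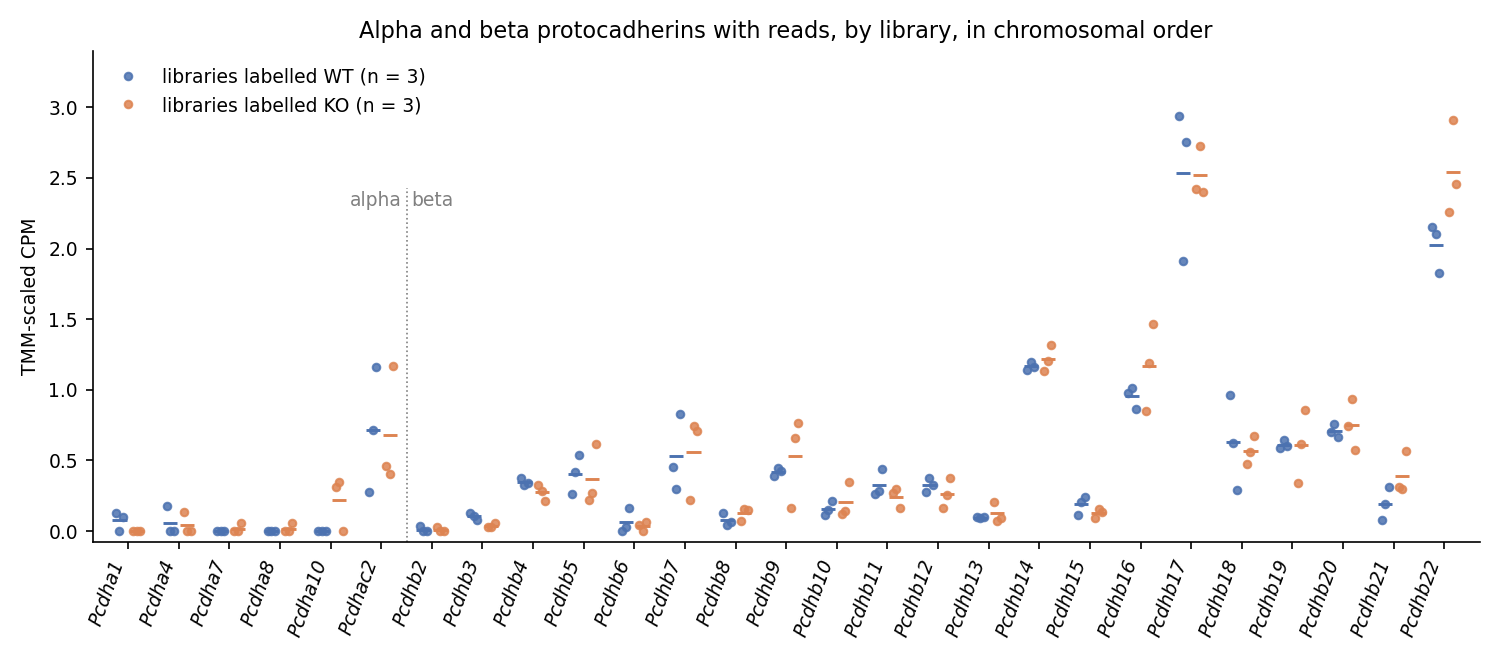
Each point is the TMM-scaled CPM of 1 alpha or beta gene in 1 library, on a linear axis, for genes with reads in any library, with short bars at the mean of each labelled group (n = 3). Pcdhb17 and Pcdhb22 reach 2.94 and 2.91 CPM, and Pcdhac2 is the alpha gene with reads in every library.

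Alpha genes were close to silent in this tissue. Of 14, 8 had no read in any library, among them Pcdha2, Pcdha3, Pcdha5 and the C-type gene Pcdhac1. A count of 0 allows up to 3 counts, or 0.0417 to 0.0477 CPM before scaling, in a library. This limit covers counting error only, and the sources used here do not say whether PCR copies were counted as separate reads. Pcdhac2, a C-type gene known from serotonergic neurons, where it spaces axons apart, was the alpha gene with reads in all 6 libraries. It had 17, 48 and 71 counts in WT 1, 2 and 3 and 31, 28 and 87 counts in KO 1, 2 and 3. WT 3 and KO 3 were the highest, and the groups overlapped (log2 fold change -0.08 ± 0.59, SE, and 0.04 when scaled by library size alone).

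The other 5 alpha genes with reads had them in at most 2 libraries, with at most 24 counts. Pcdha10 had 21 counts in KO 1 and 24 in KO 2 and none in the other 4 libraries. Pcdha4 had 11 counts in WT 1 and 9 in KO 1 and none elsewhere. Alpha genes share constant exons as well, and how shared reads were assigned among them was not tested. The predicted read-through genes Gm38666, Gm38667 and Gm37013, which overlap the clusters, had 0 counts in all 6 libraries.

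Of the 57 genes, 38 passed the filter on low counts, namely 21 gamma, 16 beta and 1 alpha gene. In edgeR's quasi-likelihood test across all genes 0 of these 38 passed the threshold, against 0.0168% of all genes tested. At an unadjusted p under 0.05 there were 2, Pcdhga9 and Pcdhgb5, against 19.4% of all genes. DESeq2 called the same 2 genes, where it called 7.16% of genes, limma voom called 0, and edgeR without KO 1 called Pcdhga9, where it called 5.57%. Groups did not overlap for 2 members higher (Pcdhga9 and Pcdhb22) and 3 lower (Pcdhgb5, Pcdhga5 and Pcdhb4) in the KO-labelled libraries, against 26.2% of all genes tested in either direction. An absolute log2 fold change of at least 1 was reached by 2 members, Pcdhga9 and, at the limit and not without WT 1 or KO 3, Pcdhb21, against 5.36% of all genes tested. Since this contrast picked the set out, nothing is read from these counts. Pcdhb3, which the filter removed, had 8, 7 and 5 counts against 2, 2 and 4 and was named after its values were seen.

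**Figure D4:**
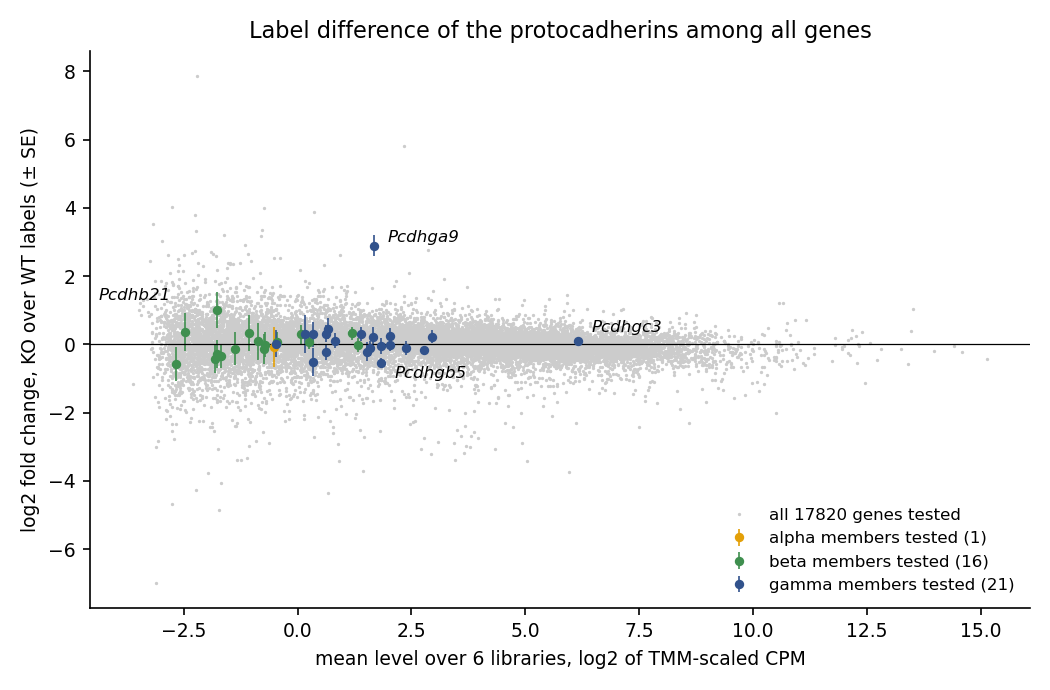
Each grey dot is 1 of 17820 genes tested, with its mean level over 6 libraries (log2 of TMM-scaled CPM) and its log2 fold change of labels KO over WT, and coloured points are the tested protocadherins with SE bars. Pcdhga9 sits at 2.90, while the other 37 lie between -0.57 and 1.00.

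Spread between libraries differed among members. The median biological coefficient of variation, edgeR's estimate of spread between libraries beyond counting error, was 0.225 over the gamma genes and 0.305 over the tested beta genes, beside 0.164 over all genes tested. It was 0.116 for Pcdhgc3 and 0.265 for Pcdhga9, and 0.476 for Pcdhgb1. Counts differed as well: Pcdhgb1 had 22 to 130 counts per library and Pcdhgc3 had 4197 to 5386.

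Regulators of the clusters were measured in the same libraries, as 30 genes of CTCF, cohesin, DNA methylation and silencing complexes. In edgeR's test 0 of 30 passed over all genes, against 0.0168% of genes tested, 1 had an unadjusted p under 0.05, against 19.4%, and DESeq2, which called 7.16% of all genes, and limma voom called 0. Ctcf, the insulator protein, had 40.0, 33.7 and 35.4 CPM in the WT-labelled libraries and 41.4, 44.1 and 45.7 CPM in the KO-labelled ones (log2 fold change 0.27 ± 0.09, SE; adjusted p 0.202 in edgeR). All KO-labelled libraries were above those labelled WT, by little in KO 1. Stag1 and Smc3, which encode cohesin subunits, stood at 0.24 ± 0.10 and 0.25 ± 0.11, Pds5b, a cohesin regulator, at 0.24 ± 0.13, and Tet2, which oxidises methylated cytosine, at 0.27 ± 0.14 (SE). The list had a median of 0.09, with 19 above 0 and 11 below, beside 0.02 over all genes. Groups did not overlap for 5 higher, Ctcf among them, and 2 lower of the 30, against 13.7% and 12.5% of all genes tested in these directions.

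Proteins that bind, phosphorylate, cut or act downstream of clustered protocadherins were covered by 28 genes. In edgeR's test 0 of 28 passed, against 0.0168% of all genes, 8 had an unadjusted p under 0.05, against 19.4%, and limma voom called 0. DESeq2 called 2 of 28, Fscn1 and Ret, where it called 7.16% of all genes. Ret, a receptor tyrosine kinase for GDNF family ligands that phosphorylates alpha and gamma protocadherins, had 24.6, 48.4 and 43.8 CPM in the WT-labelled libraries and 13.0, 6.24 and 4.55 CPM in the KO-labelled ones. All KO labels were below all WT labels, with KO 1 the nearest to them (log2 fold change -2.30 ± 0.44, SE; adjusted p 0.125 in edgeR). Fscn1, an actin-bundling protein, stood at -0.72 ± 0.18 (SE; adjusted p 0.150 in edgeR).

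Ptk2b, the kinase PYK2, which the cytoplasmic tails of protocadherins bind and inhibit, had 79.4, 89.0 and 79.7 CPM against 71.1, 65.1 and 65.3 CPM (log2 fold change -0.30 ± 0.09, SE). Ncstn, a gamma-secretase subunit of the complex that releases those tails, stood at -0.33 ± 0.10, and Nckap1, of the actin-regulating WAVE complex, at -0.28 ± 0.10 (SE). Groups did not overlap for 1 higher and 10 lower of the 28, against 13.7% and 12.5% of all genes tested in these directions. The median was -0.08. Without KO 1, edgeR called 3 of the 28, Psen2, Ptk2 and Ret, where it called 5.57% of all genes.

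Non-clustered protocadherins and genes around the clusters were represented by 28 genes, of which 24 were tested. In edgeR's test 0 of 24 passed, against 0.0168% of all genes, 7 had an unadjusted p under 0.05, against 19.4%, and limma voom called 0. DESeq2 called 2, Arap3 and Pcdh12, where it called 7.16% of all genes, and edgeR without KO 1 called 1, Pcdh7, where it called 5.57%. Pcdh12, a protocadherin of endothelium, had 2.68, 4.54 and 3.28 CPM in the WT-labelled libraries and 1.90, 2.01 and 1.17 CPM in the KO-labelled ones, which did not overlap (log2 fold change -1.05 ± 0.28, SE; adjusted p 0.157 in edgeR). Arap3, a GTPase-activating protein, stood at -0.57 ± 0.15 (SE). Endothelial markers lay on the same side: 6 of 6 were below 0, all with reads, and had summed levels of 193 to 262 CPM against 153 to 165 CPM. DESeq2 called 4 of these 6 markers, and edgeR called 0. Their part in these values was not tested.

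Pcdh18 had 4.05, 5.01 and 4.50 CPM against 5.62, 6.62 and 7.34 CPM, higher in all KO-labelled libraries (log2 fold change 0.53 ± 0.15, SE; adjusted p 0.169 in edgeR). Cd14, the lipopolysaccharide co-receptor of macrophages, stood at 0.57 ± 0.19 and Pcdh15, a tip-link protein of hair cells, at 1.86 ± 0.70 on 4 to 64 counts (SE). For both genes the groups overlapped. Pcdh15 had 12, 21 and 64 counts in KO 1, 2 and 3, and its log2 fold change ran from 0.96 to 2.23 with 1 library left out. The median over the 24 was 0.13, beside 0.02 over all genes. Of these 24, groups did not overlap for 5 higher and 3 lower, against 13.7% and 12.5% of all genes tested in these directions.

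Markers of other cell types are given beside Pcdhga9, and edgeR called 0 of them, against 0.0168% of all genes tested. DESeq2, which called 7.16% of all genes, called 1 of 6 mesothelial and 2 of 6 macrophage markers. It also called 2 of 8 progenitor and fibroblast markers and 3 of 6 smooth muscle and pericyte markers. Mesothelial markers, 6 of 6 above 0, had summed levels of 468 to 760 CPM in the WT-labelled libraries and 739 to 920 CPM in the KO-labelled ones. Macrophage markers, 6 of 6 above 0, had 514 to 554 CPM and 564 to 760 CPM, the list in this paragraph whose sums did not overlap. The adipocyte and endothelial sums given above did not overlap either, both lower in the KO-labelled libraries. Progenitor and fibroblast markers, 6 of 8 above 0, had 2476 to 2668 CPM and 2657 to 4137 CPM. Smooth muscle and pericyte markers, 5 of 6 below 0, had 311 to 1610 CPM and 179 to 439 CPM. Acta2 supplied 1393 CPM of the highest of these sums, that of WT 2. Groups did not overlap for 3 of the 6, Rgs5, Notch3 and Cspg4, all lower in the KO-labelled libraries, against 12.5% of all genes tested in that direction. The mesothelial, fibroblast and smooth muscle sums overlapped between labels. All of these markers had reads, and their part in the Pcdhga9 value was not tested.

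Nerve and epididymis were little represented. Neuronal markers summed to 0.832 to 1.35 CPM in the WT-labelled libraries and 0.588 to 1.04 CPM in the KO-labelled ones, with 2 of 6 genes tested and Th, the tyrosine hydroxylase gene, at 0 reads. Schwann cell markers, of which 3 were above 0 and 1 below among 4 tested, summed to 47.3 to 52.4 CPM and 49.7 to 61.9 CPM. Of 5 epididymal genes, Defb48, Lcn5 and Spint4 had 0 reads and the others summed to at most 0.201 CPM in any library.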

How the data were processed

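RNA of 6 epididymal fat samples was sequenced with a stranded mRNA kit, per the labels' protocols. Per the submitters' processing notes, the build was mm10 and the tools included StringTie 2.1.3b, HISAT2 2.1.0, Bowtie2 2.3.4.1, FastQC 0.11.7 and bcl2fastq 2.20.0, with no role for each, and whether counting used strand is not stated there. The authors deposited, per the file headers, a read count, an FPKM and a TPM value per gene and library. Counts entered all tests, FPKM was used to find the lengths behind it, and TPM compared genes per length.

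Genes passing filterByExpr (minimum count 10, minimum total 15) were scaled by TMM and tested in edgeR 4.0.16 (R 4.3.3) with a robust quasi-likelihood fit on label alone, two-sided, Benjamini-Hochberg threshold 0.05. Standard errors derive from the F statistic. Alternatives were RLE or library-size scaling, no filter, DESeq2 1.42.0, limma 3.58.1 voom, a replicate block and leaving out each library. The code was tested on simulated counts. Coordinates are those of RefSeq GRCm38.p6, the assembly of mm10, and exons those of GENCODE. Variable exons were aligned globally in Biopython 1.88.

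Members and lists were chosen with earlier results of these data known. Named were C-type genes, Pcdhga9 and 2 neighbours per side, the 3 highest, lowest, most raised and most lowered per cluster, members whose groups did not overlap, and up to 5 genes of smallest p per list. No sequence of these loci is reported here.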

Additional observations from a re-analysis of the deposited data

How the results depend on the processing

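The log2 fold change of Pcdhga9 stayed between 2.62 and 3.10 in all 12 alternatives. It crossed edgeR's threshold with scaling by library size alone (3.01), without the filter on low counts (2.89) and without KO 1 (2.69), and it did so in DESeq2 (2.89), while the other 8 alternatives left it short, as did the reported fit. Members past the threshold then numbered 1, 1 and 1 in edgeR and 2 in DESeq2, and 0 to 1 with 1 library left out. All genes past the threshold numbered 1152 in DESeq2, 5 in limma voom, 1 with a replicate block and 1 to 1016 with 1 library left out, against 3. Under scaling by library size alone 1 was higher and 3 lower, against 0 and 3. Partner genes called were 2 in DESeq2 and 0 to 3 with 1 library left out, and related genes 2 and 0 to 1. The summed level of all members, Pcdhga9 included, was 0.23 (log2 of KO over WT labels) under scaling by library size alone, against 0.12. With 1 library left out it was 0.05 to 0.17. The cause of these differences was not tested. Small differences turned sign: Pcdhac2 (0.042), Pcdhga10 (0.10) and Pcdhb17 (0.11) under scaling by library size alone, and Pcdhb17 in limma voom (0.019) and with the replicate block (0.01). With 1 library left out, log2 fold changes ran from -0.73 to 0.44 for Pcdhac2, -0.27 to 0.28 for Pcdhgc4, -0.15 to 0.084 for Pcdhga10, -0.17 to 0.11 for Pcdhb17, -0.029 to 0.76 for Pcdhb9 and -0.09 to 1.01 for Pcdhgb1. They kept their sign but ran from -0.78 to -0.083 for Pcdhgc5 and 0.64 to 1.49 for Pcdhb21. Libraries that share a replicate number did not deviate together (correlations of -0.17, -0.02 and 0.05 for numbers 1, 2 and 3), so the block pairs nothing the labels name. Depth limits the alpha genes and the lower beta genes, where a few counts separate libraries.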
